A study of Mus musculus with 12 samples.

Results

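Chromatin immunoprecipitation with an Nfib antibody pulls down the DNA to which Nfib is bound, and after sequencing a peak is an interval that the authors list as enriched. The intervals described here are the narrow Nfib peaks that a line with high Nfib and a line with low Nfib had in common. They were chosen from the KP1 list by 3 conditions, namely a position on chromosomes 1 to 19 other than chromosome 4, a width under 500 bases, and at least 1 base of overlap with a KP22 peak. There were 5471 such peaks, out of 24905 peaks in the KP1 list, and they made up 26.0% (25.4 to 26.6) of the 21028 narrow KP1 peaks on the same chromosomes. Because the rule itself used the positions in both lists and the KP1 widths, the values below describe the chosen peaks, and none of them is a test. Ranges in brackets after a percentage are exact Clopper-Pearson 95% intervals. They cover counting error only, as if each peak were independent of the others.

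Nfib belongs to the nuclear factor I transcription factors. Proteins of this family bind DNA as dimers, and the site they favour is a palindrome whose arms are set apart by a short spacer. Nfib is needed for normal lung and brain development. In small cell lung cancer, a neuroendocrine tumour, its gene is often gained or highly expressed, and its level has been tied to metastasis and to open chromatin. In a pulldown of such a factor, sonicated DNA fragments pile up around the bound site, so a peak is wider than the site itself, and its midpoint is only an estimate of where the factor sat.

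The 3 lines of the series, 16T, KP1 and KP22, are tumour-derived mouse small cell lung cancer lines that all carry the genotype Trp53-/-;Rb1-/- and were grown as floating spheres. By the labels, Nfib expression is high in 16T and KP1 and low in KP22, and no treatment is given. Each line had 2 input and 2 Nfib pulldown libraries, 12 in all, and each peak list stood for 1 line. Peaks of 16T were not analysed here. With 1 high and 1 low line, the level of Nfib and the line cannot be told apart. With 1 list per line, no value has a replicate check and no test between the lines was made. The sources used here give no reads per library, and neither list gives a height or score per peak, so that a site listed in only 1 line may still have bound Nfib below the calling threshold in the other. Positions are in mm9, 1-based. The gene and promoter tables at hand are of a later build, and so neither genes nor sequences at the peaks were analysed.

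Shared narrow peaks mostly matched 1 to 1 between the lines. Of the 5471 peaks, 5458 overlapped 1 KP22 peak and 13 overlapped 2. In the other direction they fell on 5445 distinct KP22 peaks, of which 5406 covered 1 shared narrow KP1 peak and 39 covered 2. These 5445 made up 60.3% (59.3 to 61.3) of the 9034 KP22 peaks on the same chromosomes. Overlap with more than 1 KP22 peak was found for 0.238% (0.127 to 0.406) of the shared narrow peaks. For the 550 shared KP1 peaks of 500 bases or more on those chromosomes it was 33 peaks, or 6% (4.17 to 8.32). The rule holds the shared narrow peaks under 500 bases, and a narrower interval leaves less room for more than 1 KP22 peak.

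The midpoints of both peaks at a shared site lay close together. The rule requires an overlap and a KP1 width under 500 bases, which by itself keeps the distance small. The absolute distance had a median of 29.5 bases (95% interval of the median 28.5 to 30.5) and quartiles of 13.0 and 55.5 bases. The midpoints were within 10 bases at 1071 sites, within 50 bases at 3881 sites (70.9%, 69.7 to 72.1) and within 100 bases at 5053 sites (92.4%, 91.6 to 93.1). Neither direction was favoured: the KP22 midpoint lay to the right at 2691 sites and to the left at 2753, and the signed distance, KP22 minus KP1, had a median of -0.50 bases (-2.00 to 1.00). The 550 wide shared peaks had a larger median distance of 88.5 bases (79.0 to 97.0). A wider interval leaves more room for such a distance.

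**Figure D1:**
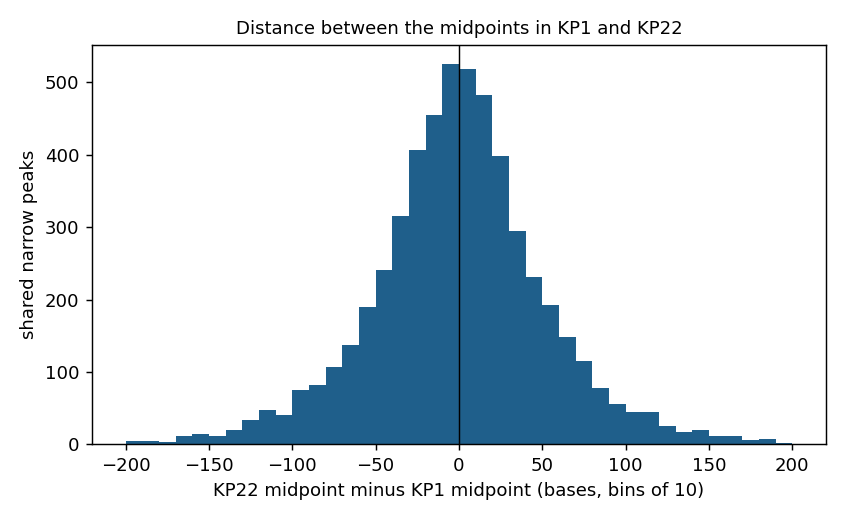
Histogram of the KP22 midpoint minus the KP1 midpoint in bases (x axis, bins of 10 bases) against the number of shared narrow peaks (y axis), shown for distances up to 200 bases either way. The counts are highest around 0 and fall off alike on both sides, with a median of -0.50 bases.

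At 27 sites the midpoints coincided exactly, although 0 sites had the same start and end in both lists. The first of them in genome order was chr1:25750981-25751138, a peak of 158 bases in KP1 that lay inside a KP22 peak of 190 bases, chr1:25750965-25751154. The next was chr3:38175957-38176115, with 159 bases in KP1 and 237 in KP22. At the other extreme was chr13:71157756-71157948, a KP1 peak of 193 bases inside a KP22 interval of 2543 bases (chr13:71157136-71159678), whose midpoint was 555 bases away. The next largest distances were 369 bases at chr13:104822860-104823196 and 361 bases at chr2:118522894-118523043, where the KP22 peaks had 919 and 756 bases. At each of the 5 sites with the largest distances the KP22 interval was the wider one. With the KP1 widths at these sites, an overlap at such distances requires a wider KP22 interval.

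The overlap usually took in most of both peaks. Its median length was 198 bases (quartiles 163 and 247), which covered a median of 87.8% of the KP1 peak and 85.5% of the KP22 peak. The KP1 peak lay wholly within the KP22 peak at 1595 sites (29.2%) and the KP22 peak wholly within the KP1 peak at 1321 (24.1%). The other 2555 (46.7%) were staggered. At 67 sites (1.22%) the overlap came to less than 50% of either peak.

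Where a shared narrow KP1 peak met 2 KP22 peaks, the KP22 midpoints lay on either side of its own at all 13 sites. The overlap of 2 separate KP22 peaks with 1 narrow KP1 peak by itself favours this placement. At chr6:120109227-120109657, for example, a KP1 peak of 431 bases overlapped KP22 peaks of 221 and 188 bases, chr6:120109191-120109411 and chr6:120109473-120109660. It shared 185 bases with each. At chr17:10097449-10097843 a KP1 peak of 395 bases shared 159 and 155 bases with its 2 KP22 peaks. The reverse was seen, at its widest, at chr11:55237278-55238149, where 1 KP22 peak of 872 bases covered 2 shared narrow KP1 peaks, which start at 55237272 and 55237860.

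Both lines gave peaks of much the same width at shared sites, but the width in KP1 said little about the width in KP22. The median was 245 bases in KP1 (quartiles 193 and 316) and 246 bases for the KP22 partners (197 and 314). Site by site, KP22 minus KP1 had a median of 6 bases (4 to 9), while the absolute difference had a median of 62.0 bases. The KP22 peak was the wider one at 2882 sites (52.7%, 51.3 to 54.0) and the narrower one at 2567 (46.9%). Across the 5471 sites the widths had a Pearson r of 0.242 and a Spearman rho of 0.258. Sites are not replicates, and the KP1 width is held under 500 bases by the rule.

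As KP1 width went from 150 to 199 bases up to 400 to 499 bases, the median KP22 width went from 219 bases (215 to 225, 1537 sites) to 297 bases (284 to 313, 525 sites). The KP22 peak was therefore wider at 86.3% of the sites in the first class and at 15.2% in the last. Sorting by KP1 width by itself favours a wider KP22 peak in the first class and a narrower one in the last. The narrowest peaks of each list share 1 width, 150 bases in KP1 and 159 in KP22. Of the shared narrow peaks, 282 had 150 bases in KP1, 273 had a partner of 159 bases, and 34 had both. A partner of 500 bases or more was found at 202 sites (3.69%), so a site that is narrow in KP1 could be wide in KP22.

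**Figure D2:**
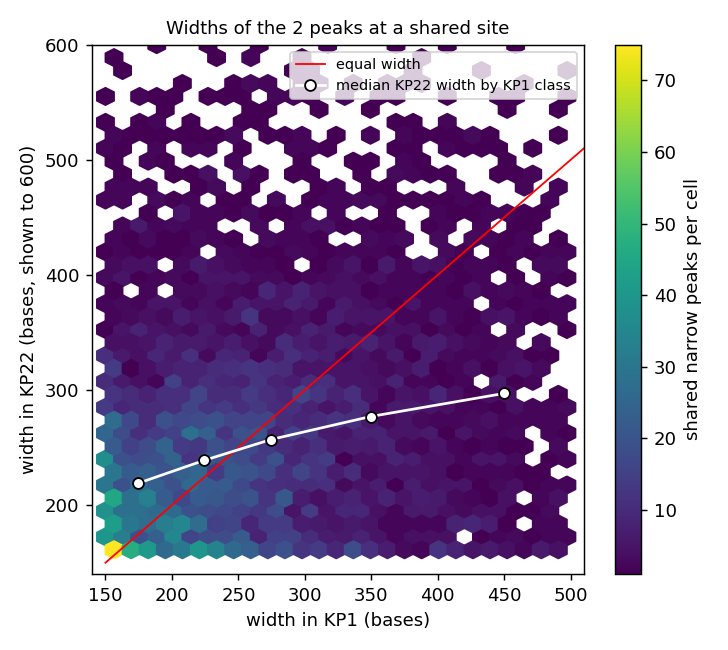
Width in KP1 (x axis, bases) against width in KP22 (y axis, bases, shown to 600) for the shared narrow peaks, with colour for the number of sites per cell, a red line at equal width, and white points for the median KP22 width in each class of KP1 width. The medians cross the line of equal width and end at 297 bases for KP1 peaks of 400 to 499 bases.

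Among narrow KP1 peaks, the share differed by width up to about 250 bases and was level from there to the limit. Of the KP1 peaks at the minimum of 150 bases, 282 of 2190 were shared (12.9%, 11.5 to 14.4). The share was 20.9% (1255 of 5999) at 151 to 199 bases, 28.4% (27.1 to 29.8) at 200 to 249 and 31.9% (30.3 to 33.6) at 250 to 299. It then stayed level, at 31.7% for 300 to 349, 31.7% for 350 to 399, 33.1% (30.1 to 36.1) for 400 to 449 and 30.6% (27.1 to 34.2) for 450 to 499. Together, 2634 of 8267 peaks of 250 to 499 bases were shared (31.9%, 30.9 to 32.9). Outside the rule the share was higher again, at 36.9% (34.2 to 39.7) for 500 to 749 bases, 42.3% (35.2 to 49.6) for 750 to 999 and 51.9% (37.6 to 66.0) for 1000 bases or more, the last being 27 of 52 peaks.

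Seen from KP22, the share was higher in each wider class. Of the KP22 peaks on the same chromosomes, 41.8% (38.2 to 45.5) of those at the minimum of 159 bases overlapped a KP1 peak of any width. This was 64.8% (62.8 to 66.8) at 200 to 249 bases, 84.6% (82.5 to 86.4) at 300 to 399 and 97.0% (94.2 to 98.7) at 500 bases or more, where 262 of 270 were shared. At 500 bases or more, the KP1 share was 38.2% (35.7 to 40.7). The KP1 list is the longer of the lists, which by itself favours overlap in this direction.

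**Figure D3:**
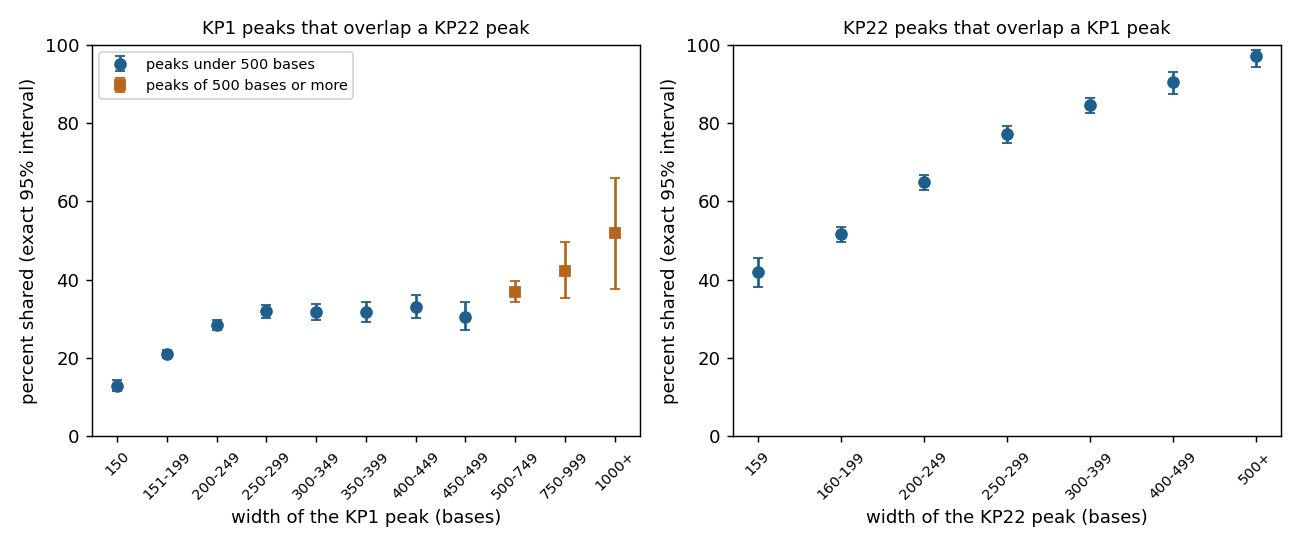
Percentage of peaks shared with the other line (y axis, points with exact 95% intervals) by peak width in bases (x axis), for KP1 peaks on the left, with those of 500 bases or more as squares, and for KP22 peaks on the right. The KP1 share is level near 32% from 250 to 499 bases, and the KP22 share runs from 41.8% to 97.0%.

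Near the width limit, the intervals of the share inside and outside overlapped. The widest shared narrow peak was chr5:115372948-115373446, of 499 bases, which lay wholly within a KP22 peak of 727 bases. The shared peaks just outside the limit had 500 bases, and there were 4 of them, for example chr7:117924806-117925305. Of the KP1 peaks of 490 to 499 bases, 37 of 128 were shared (28.9%, 21.2 to 37.6), against 35 of 98 (35.7%, 26.3 to 46.0) at 500 to 509.

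Near misses were few. Of the 15557 narrow KP1 peaks without a KP22 overlap, 433 had a KP22 peak within 500 bases of their edge, equal to 2.06% of all narrow KP1 peaks. The median distance to the nearest KP22 peak was 53.9 kb. Gaps of 101 to 200 and 201 to 300 bases were the most frequent of the short ones, with 102 and 109 peaks, against 69 at up to 100 bases and a mean of 47.8 per 100 bases between 501 and 1000. An allowance of 500 bases between peaks would thus add 433 peaks to the 5471.

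KP1 peaks that stood alone were shared more often than those with another KP1 peak near them. With 0 other KP1 peaks within 10 kb, 3358 of 11863 narrow peaks were shared (28.3%, 27.5 to 29.1). With at least 1, it was 2113 of 9165 (23.1%, 22.2 to 23.9). At the closer distance of 2 kb the shares were 27.5% (26.8 to 28.2) with 0 others, 21.4% (20.1 to 22.7) with 1, 17.6% (14.7 to 20.7) with 2 and 10.5% (5.56 to 17.7) with 3 or more, the last being 12 of 114 peaks. The median width was 233 bases for narrow peaks with a neighbour within 2 kb and 220 bases for those without.

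By class of width, the share with 0 was set against that with at least 1 other KP1 peak near. Within 10 kb it was 20.7% against 15.9% for peaks of 150 to 199 bases, 32.7% against 26.2% for 200 to 299, and 35.4% against 28.2% for 300 to 499. Within 2 kb, a distance chosen after seeing the data, it was 20.3% against 12.6%, 31.8% against 23.0%, and 33.3% against 27.4% in the same order. Of the KP22 peaks with another KP22 peak within 2 kb, 68.1% (64.8 to 71.2) overlapped a KP1 peak, against 66.5% (65.5 to 67.5) of those without, with overlapping intervals. At 10 kb the values were 70.3% (68.2 to 72.3) and 65.7% (64.6 to 66.8), and the intervals did not overlap. For KP22 peaks of any width, the direction at 10 kb was thus opposite to that for narrow KP1 peaks. The KP22 peaks were not split by width here, although their share differed by width, so the comparison is not like for like.

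**Figure D4:**
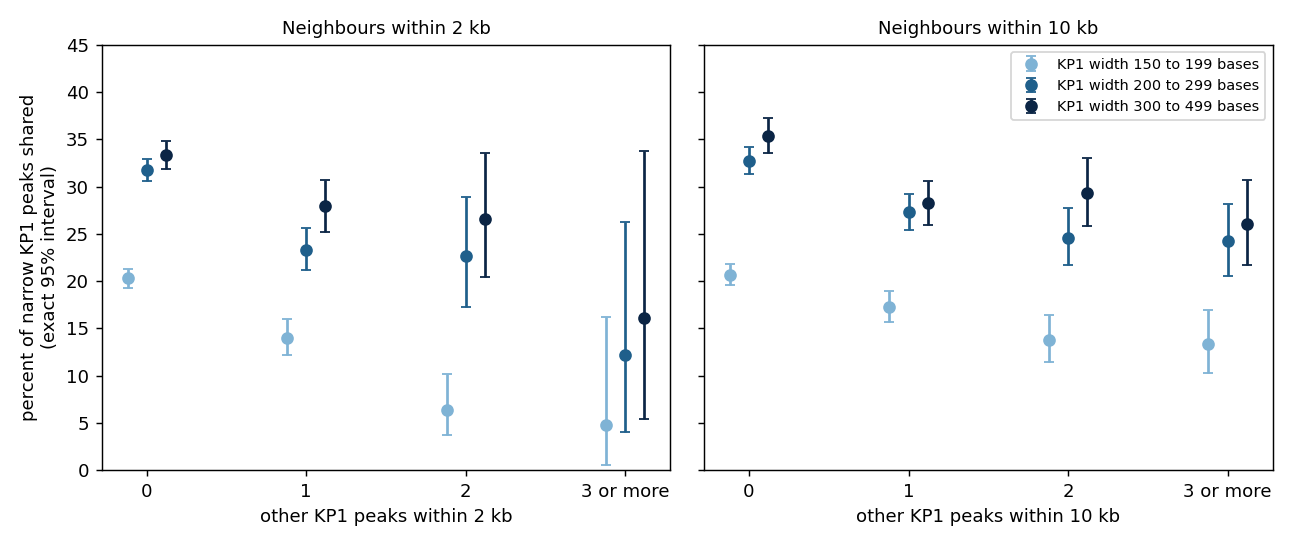
Percentage of narrow KP1 peaks shared with KP22 (y axis, points with exact 95% intervals) by the number of other KP1 peaks within 2 kb (left) and 10 kb (right), in 3 classes of KP1 width. In each class the peaks with 0 others have the highest share, for example 33.3% at 300 to 499 bases on the left.

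Counted by place rather than by peak, larger groups held a shared peak more often. KP1 peaks of any width were joined into groups where the gap between them was at most 2 kb. Of 17174 groups of 1 peak, 28.2% (27.5 to 28.9) held a shared peak. The figure was 37.5% (35.4 to 39.6) for 2020 groups of 2, 47.1% (41.4 to 52.8) for 310 groups of 3 and 52.2% (39.7 to 64.6) for 67 groups of 4 or more. A group with more peaks has more chances to hold a shared one. The rise is therefore no reversal of the lower share per peak near neighbours. Of the 2020 groups of 2, 757 held a shared peak, and in 130 both peaks were shared narrow peaks. Pairs under the same KP22 peak were not left out of this count.

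Shared peaks were also somewhat more frequent next to each other. Among narrow KP1 peaks whose previous narrow peak was up to 1 kb away, 35.9% (30.6 to 41.5) were shared when that peak was shared and 16.7% (14.6 to 18.9) when it was not. Leaving out pairs that lay under the same KP22 peak, the first value was 26.7% (21.5 to 32.4). At 10 to 50 kb the values were 30.6% (28.4 to 32.8) and 26.1% (24.8 to 27.3). In the other 5 bands of distance the share was also higher after a shared peak, but the intervals overlapped. The values there were 26.3% (19.6 to 33.9) and 17.4% (14.5 to 20.6) at 1 to 2 kb, 27.0% (22.2 to 32.3) and 22.3% (19.8 to 25.01) at 2 to 5 kb, and 29.5% (25.1 to 34.1) and 26.2% (23.7 to 28.8) at 5 to 10 kb. They were 27.9% (25.8 to 30.05) and 25.7% (24.5 to 26.9) at 50 to 200 kb, and 29.1% (25.9 to 32.5) and 27.4% (25.4 to 29.5) beyond 200 kb.

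Runs of neighbouring shared peaks were short. In the order of all KP1 peaks, 2827 shared narrow peaks stood between peaks that were not, and 794 runs held 2. The longest run had 8 peaks in a row and spanned 347.5 kb at chr1:79605497-79953017. There were 10 runs of 6, from chr1:36580392-36637251, over 56.9 kb, to chr19:10969507-14301336, over 3332 kb. Another, chr5:115266681-115399161 over 132.5 kb, includes the widest shared narrow peak named above.

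Shared narrow peaks were spread over all 18 chromosomes in near proportion to the narrow KP1 peaks there. The share ran from 21.9% (18.8 to 25.2) on chromosome 14 and 22.1% on chromosome 18 to 28.0% on chromosomes 11 (25.8 to 30.2) and 19 (24.4 to 31.9). For 16 of the 18 chromosomes the interval held the share of all, 26.0%, and chromosomes 14 and 18 lay below it. Seen from KP22, 48.5% of the 303 peaks of chromosome 14 overlapped a shared narrow peak, against 53.9% to 64.3% on the others. The same overlaps are counted there over the KP22 peaks, so this value is not separate from the first. The intervals take no account of how many chromosomes were looked at. On the chromosomes outside the rule, 25.2% (23.3 to 27.2) of the narrow KP1 peaks of chromosome 4 and 27.5% (22.1 to 33.6) of those of chromosome X were shared.

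**Figure D5:**
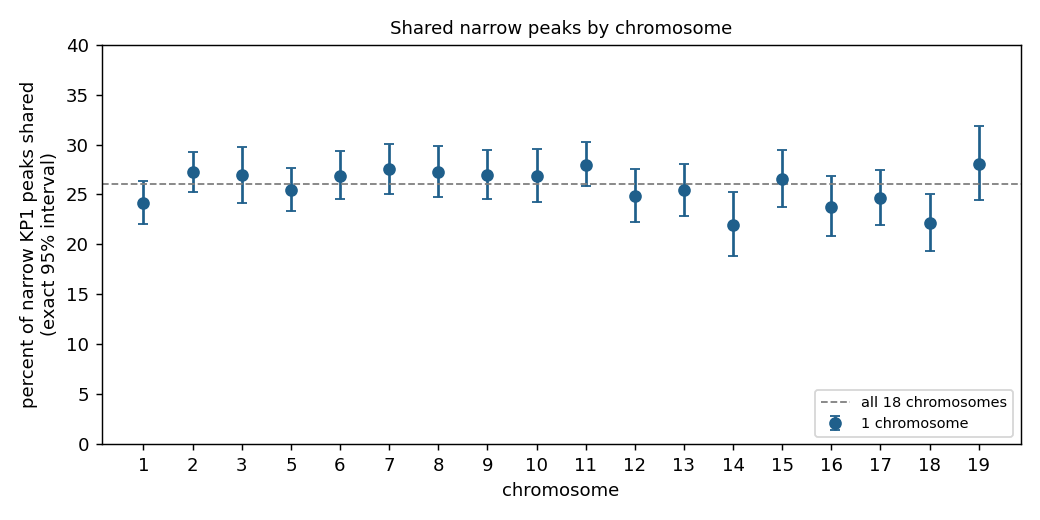
Percentage of narrow KP1 peaks shared with KP22 (y axis, points with exact 95% intervals) for each of the 18 chromosomes (x axis), with a dashed line at the share of all. Chromosomes 14 and 18 lie lowest, at 21.9% and 22.1%, and chromosomes 11 and 19 highest, at 28.0%.

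On a finer scale, at least 1 shared narrow peak lay in 1676 of the 2088 windows of 1 Mb that had a narrow KP1 peak, with a median of 2 per window. The window with most was 165 to 166 Mb of chromosome 2, with 18 of 46 narrow KP1 peaks shared (interval 25.1 to 54.6%). It was followed by 80 to 81 Mb of chromosome 10 with 17 of 36 (30.4 to 64.5%) and 117 to 118 Mb of chromosome 11 with 16 of 43 (23.0 to 53.3%). At 29 to 30 Mb of chromosome 17, 16 of 40 were shared (24.9 to 56.7%), and at 73 to 74 Mb of chromosome 15, 15 of 30 (31.3 to 68.7%). Ranking windows by their number of shared peaks by itself favours a high share. Of these intervals, those on chromosomes 2, 11 and 17 held the share of all, 26.0%, and those on chromosomes 10 and 15 lay above it. The intervals take no account of how many windows were looked at. The others of the 10 fullest windows held 13 to 15 each. Among them were the adjacent ones at 99 to 100 and 100 to 101 Mb of chromosome 6. These had 13 of 43 (30.2%, 17.2 to 46.1) and 13 of 49 (26.5%, 14.9 to 41.1), near the share of all, 26.0%.

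Some larger segments had few shared peaks among many KP1 peaks. In the 178 windows of 5 Mb with at least 50 narrow KP1 peaks, the share ran from 8% (2.22 to 19.2), 4 of 50 at 35 to 40 Mb of chromosome 16, to 44.8% (32.6 to 57.4), 30 of 67 at 25 to 30 Mb of chromosome 7. Chromosome 7 also held the window with the next lowest share, 6 of 56 at 140 to 145 Mb (10.7%, 4.03 to 21.9). On chromosome 2, 39 of 96 were shared at 150 to 155 Mb (40.6%, 30.7 to 51.1) and 9 of 66 at 140 to 145 Mb (13.6%, 6.43 to 24.3). The interval lay below the share of all in 15 windows and above it in 10. The windows were chosen while the lists were examined, and the intervals take no account of how many windows were looked at.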

How the data were processed

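Nfib pulldowns and inputs of 3 lines were sequenced, with 2 libraries of each kind per line. The submitters' processing notes name Bowtie2, MACS2, DESeq2, DESeq and the build mm9, without versions or roles. The peak threshold, and whether libraries were pooled for peak calling, are not given in the sources used here. Either could alter which peaks are listed. Per the authors' lists as deposited, each peak has a start, an end and a blank score, with no measured signal. Rows of the deposited table of merged regions carry no position, so they could not be tied to a peak and were not used.

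Groups came from the sample titles. Overlaps (at least 1 base), midpoints and neighbours were computed with numpy 2.4.6, pandas 2.3.3 and scipy 1.17.1 under Python 3.11.15. Plots used matplotlib 3.10.9. A KP1 peak over 2 KP22 peaks was paired with the nearer midpoint. The overlap step was tested on simulated data, and bedtools 2.31.1 gave the same 5471 peaks. Peaks were named by set rules: the smallest and largest midpoint distances, the fullest windows of 1 Mb, the longest runs, more than 1 partner, and the width limit. The 5 Mb windows, the groups joined at 2 kb, KP22 peaks over 2 members, the width classes and the comparison of successive peaks were added while the lists were examined. The members and lists were chosen with earlier results of these data known.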

Additional observations from a re-analysis of the deposited data

How the results depend on the processing

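The main values were 5471 shared narrow peaks, 26.0% of narrow KP1 peaks, a median midpoint distance of 29.5 bases, and shares of 28.3% without and 23.1% with another KP1 peak within 10 kb. In this order of share, distance, share without and share with a neighbour, a reciprocal overlap of at least 50% gave 22.7%, 26 bases, 25.2% and 19.5%, and midpoints within 100 bases gave 24.0%, 26.5 bases, 26.6% and 20.8%. A width under 300 bases gave 24.2%, 26 bases, 26.3% and 21.1%. A width under 1000 bases gave 26.7% and 31.5 bases, and 24.1% with a neighbour. A KP22 partner under 500 bases gave 25.1%, and 27.5% and 21.9% by neighbourhood. With a neighbour within 5 kb the share was 21.6%, within 50 kb 25.3%, and within 2 kb (chosen after seeing the data) 20.5%. KP1 widths of at least 250 bases, also chosen after seeing the data, left 2634 peaks by construction, with 31.9%, 34.5 bases, 34.8% and 28.7%. The count of shared peaks stayed within 1.5 times of 5471 in the 8 other settings. The share was higher without a neighbour in all 13 settings that were run, the main one included, by 3.23 to 6.98 percentage points. Tighter overlaps, the limit on midpoints and the limit on the KP22 partner only remove shared peaks, so they lower the shares by construction. Reciprocal overlap and the limit on midpoints also cut off the larger distances. The cause of the other shifts was not tested.

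No paired analysis was possible because the lists hold no value per library, and for the same reason no replicate was left out. Motifs and distances to transcription starts were not run for want of tables of the same build, and no stricter selection by score was made, as that column is blank. Without read depth or peak scores, a site bound below the calling threshold in 1 line cannot be told from a site that was not bound.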
